A study of Arabidopsis thaliana with 58 samples.

Results

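Cytosine methylation at the *FWA* promoter was compared between *rdd*, the triple mutant *ros1-3 dml2-1 dml3-1*, and wild-type Col-0. The comparison used the untransformed plants of these genotypes that had been measured by BS-PCR-seq, which were 2 *rdd* libraries and 3 Col-0 libraries among the 47 BS-PCR-seq libraries of the series. All were made from leaves of *Arabidopsis thaliana* plants of the Columbia-0 ecotype, 4 to 5 weeks old, grown in long days. Neither group carried a transgene. The genotype is known from the labels only, since *ROS1*, *DML2* and *DML3* lie outside the amplified DNA. The study describes its replicates as independent, without saying which plants or pools they came from, so that the p-values below measure the spread between libraries.

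ROS1, DML2 and DML3 are DNA glycosylases that cut 5-methylcytosine out of DNA, after which repair puts an unmethylated cytosine in its place. ROS1 is known for trimming methylation at the edges of transposons and near genes, where it works against RNA-directed DNA methylation. *FWA* encodes a homeodomain transcription factor that delays flowering when it is expressed. In Col-0 leaves it is kept silent by methylation of tandem repeats around its start site. CG methylation is copied after replication by MET1, CHG methylation by CMT3, and CHH methylation (H stands for A, C or T) is renewed by DRM2 in RNA-directed DNA methylation or by CMT2.

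BS-PCR-seq amplifies bisulfite-treated DNA, in which unmethylated cytosines are read as thymine, so that the share of reads with C, C/(C + T), is the methylation level of a cytosine. In TAIR10, *FWA* (AT4G25530) runs from 13038360 to 13042464 of chromosome 4 and is transcribed from the plus strand. Region 1 (13038143 to 13038272) lies upstream of the gene, region 2 (13038356 to 13038499) covers exon 1 and part of intron 1, and region 3 (13038568 to 13038695) covers part of exon 2 and of intron 2. Both exons are noncoding in the annotation. Levels were measured at 74 cytosines, all on the minus strand, which is the template strand of *FWA*. Of these, 14 were CG, 3 were CHG and 57 were CHH sites. Each of the 74 had at least 10 reads in all 5 libraries, and the fewest reads behind any level were 5448 in *rdd* and 8924 in Col-0.

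The libraries come from different sets, told apart by the block of the series in which they were deposited. No label names a batch or a run. The first set holds both *rdd* libraries and 1 Col-0 library, with medians of 26112 to 30551 reads per cytosine. The second set holds the other 2 Col-0 libraries, with medians of 407158 and 502480. No *rdd* library belongs to the second set, so set and genotype are partly confounded. Where per-library values are given for Col-0, the first-set library comes first.

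The stretches on which the results turn are shown as the minus strand, 5′ to 3′, in TAIR10.1 (RefSeq) coordinates. A first pair of stretches holds the CG sites with the largest difference between *rdd* and Col-0 (region 3) and their counterparts in the other copy of the repeat (region 2), with the cytosines of CG sites in capitals.
End of region 3 in intron 2, chr4:13038671-13038695, minus strand: cctacaaatCgataaatCgtaagaa
Counterpart in region 2, intron 1, chr4:13038461-13038485, minus strand: cccacaaatCgataaatCgtaagaa
The stretches differ by 1 base, C3T, counted from the 5′ end of the region 2 stretch. In the alignment of the reference the copies around regions 2 and 3 span 164 aligned bases, of which 157 are identical, with a gap of 1 base.
The CHG sites that were lower in *rdd* lie at the end of region 2, with their cytosines in capitals.
End of region 2, intron 1, chr4:13038480-13038499, minus strand: CtgattgtCagtatcccaca
Region 1 is shown whole, with its 3 CG cytosines in capitals, because it holds measured cytosines outside the gene.
Region 1, chr4:13038143-13038272, minus strand: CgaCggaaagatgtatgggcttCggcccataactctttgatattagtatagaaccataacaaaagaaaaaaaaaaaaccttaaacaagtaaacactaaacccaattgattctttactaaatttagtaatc

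The first question was whether loss of the demethylases alters *FWA* methylation in plants without SDG2cd–ZF. Averaged over the sites of a context, the CG level was higher in *rdd* than in Col-0, and the CHG and CHH levels were lower, with no overlap between the libraries of the groups in any of the 3 contexts. The CG level was 90.1% and 91.9% in *rdd*, against 88.0% in the first-set Col-0 library and 84.3% and 87.8% in the second-set ones. The CHG level was 8.73% and 7.70% in *rdd*, against 11.6%, 13.3% and 14.5% in Col-0. The CHH level was 3.40% and 3.04% in *rdd*, against 4.27%, 4.73% and 6.48% in Col-0. In each context the first-set Col-0 library was the one closest to *rdd*. Against it alone the differences were 3.01 points in CG, −3.37 in CHG and −1.06 in CHH.

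The mean CG level was thus 91.0% ± 1.22 in *rdd* (SD, n = 2) and 86.7% ± 2.07 in Col-0 (SD, n = 3), a difference of 4.30 percentage points. The CHG mean was 8.22% ± 0.728 in *rdd* and 13.1% ± 1.48 in Col-0, a difference of −4.92 points. The CHH mean was 3.22% ± 0.254 in *rdd* and 5.16% ± 1.17 in Col-0, a difference of −1.94 points. None of these passed a threshold of 0.05. With 2 against 3 libraries the two-sided exact permutation test has 10 regroupings and cannot go below p = 0.1. It gave p = 0.1 for CG, p = 0.1 for CHG and p = 0.2 for CHH, or an adjusted p (exact test, Benjamini-Hochberg over the 3 contexts) of 0.15, 0.15 and 0.2. The median over the 3 CHG sites in place of their mean turned the CHG difference to 0.50 points, because it then rests on the CHG site of region 3. Without the second-set Col-0 replicate 2 the CHH difference was −1.28 points.

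The *rdr6* mutant, which lacks an RNA-dependent RNA polymerase of small RNA pathways, is the other untransformed genotype of the series with a methylated *FWA*, and both of its libraries were deposited in the same block as the *rdd* libraries, although their labels are spelled differently and do not state that they were made together. Its CG level was 85.1% and 85.8%, its CHG level was 13.6% and 15.0%, and its CHH level was 5.05% and 4.38%. The *rdd* libraries thus lay beyond all 5 other libraries in each context, above them in CG and below them in CHG and CHH. Over these 2 against 5 libraries the differences were 4.80 points in CG, −5.38 in CHG and −1.77 in CHH. The two-sided exact permutation test gave p = 0.0476 for CG and for CHG, the smallest its 21 regroupings allow, and p = 0.0952 for CHH, but no adjusted p passed 0.05 (exact test, 0.0714 for CG and CHG and 0.0952 for CHH). The *rdd* libraries are also part of the comparison with Col-0, so that these values are not separate support for it.

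**Figure D1:**
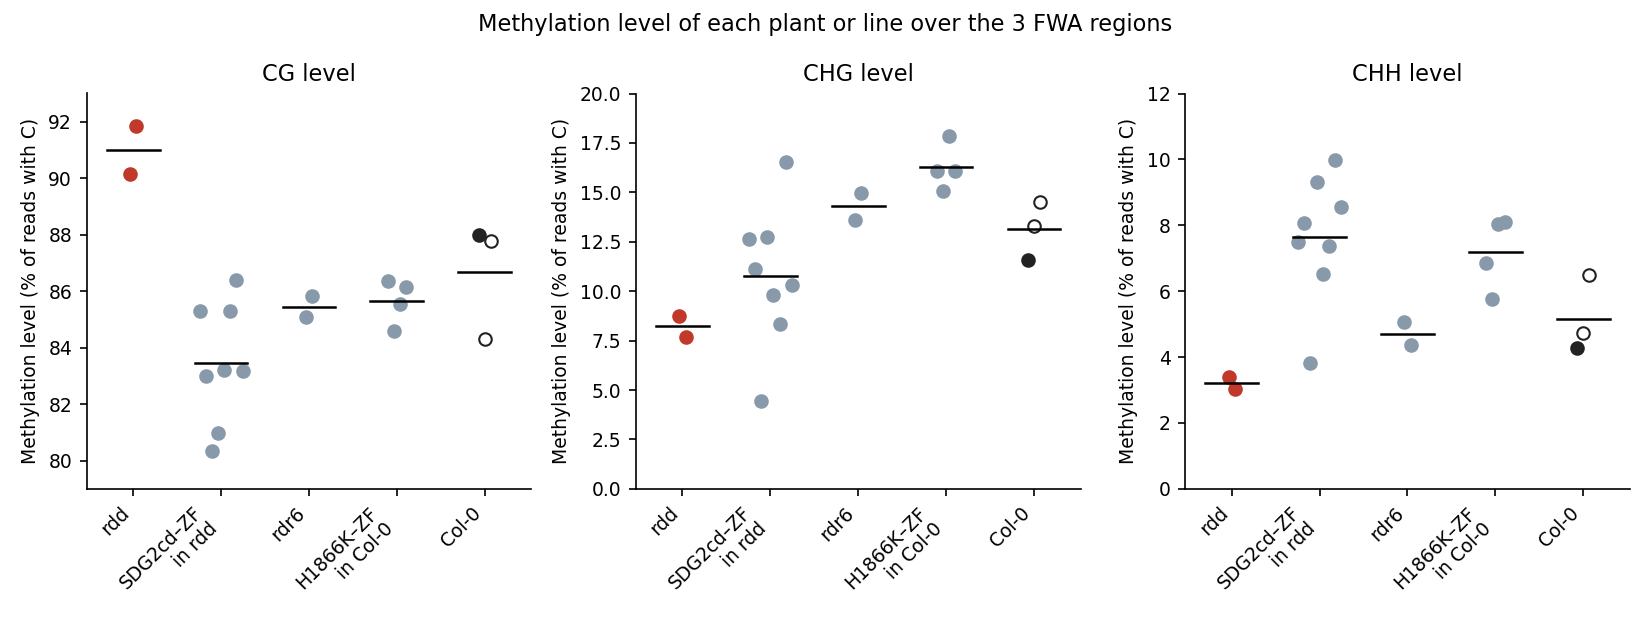
Methylation level (percent of reads with C) of each library over the CG, CHG and CHH sites of the 3 *FWA* regions, one point per library and a bar at the group mean, for *rdd* (red), SDG2cd–ZF lines in *rdd*, *rdr6* and SDG2cd(H1866K)–ZF plants in Col-0 (grey), and Col-0 (black, filled for the first set and open for the second). The vertical axes differ between panels and the CG axis does not start at 0. The *rdd* points lie above all others in CG, at 90.1% and 91.9%, and below those of Col-0 and *rdr6* in CHG and CHH.

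Within the regions, the mean CG level differed most in region 3 and CHG in region 2. The CG level of region 3 was 91.1% and 92.7% in *rdd*, against 87.0%, 83.2% and 87.7% in Col-0, a difference of 5.92 points. In region 2 the CG level was 88.8% and 90.6% in *rdd*, against 88.0%, 83.9% and 86.2% in Col-0, a difference of 3.69 points, or of 1.72 against the first-set Col-0 library alone. The libraries did not overlap in either region. In region 1 they did, with 90.4% and 92.2% in *rdd*, against 89.9%, 87.3% and 90.6% in Col-0. The CHH level was lower in *rdd* in all 3 regions without overlap. In region 1 it was 2.68% and 2.44% in *rdd*, against 3.66%, 3.44% and 4.81% in Col-0, a difference of −1.41 points. In region 2 it was 4.07% and 3.70% in *rdd*, against 4.72%, 5.47% and 7.82% in Col-0, a difference of −2.12 points. This was −0.83 points against the first-set Col-0 library alone and −1.21 without the second-set Col-0 replicate 2, which was the highest in all 3 regions. In region 3 the CHH level was 3.38% and 2.89% in *rdd*, against 4.42%, 5.25% and 6.71% in Col-0, a difference of −2.32 points, or of −1.28 against the first-set library alone. The lowest adjusted p of the 8 region and context pairs was 0.267 (two-sided exact permutation test, n = 2 and 3), where no raw p could be under 0.1.

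All 14 CG sites had a higher mean in *rdd* than in Col-0, by 0.49 to 16.3 percentage points, with a median of 3.06. At 9 of them both *rdd* libraries lay above all 3 Col-0 libraries. Over all 74 cytosines, 12.2% lay this way, and all of these were CG sites. The same count, 9 of 14, held against the 5 Col-0 and *rdr6* libraries together, again 12.2% of the 74. Against the first-set Col-0 library alone, which is a weaker condition, both *rdd* libraries were higher at 12 of 14, and at 15 of all 74 cytosines.

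A pair of neighbouring CG sites in intron 2, at 13038678 and 13038686, stood out in size. At 13038678 the level was 80.9% and 83.4% in *rdd*, against 71.5%, 57.8% and 68.1% in Col-0. This was the site with the lowest CG level in every Col-0 and *rdr6* library. The mean was 82.1% ± 1.76 in *rdd* (SD, n = 2) and 65.8% ± 7.12 in Col-0 (SD, n = 3), a difference of 16.3 percentage points. The share of reads without methylation there was 19.1% and 16.6% in *rdd*, against 28.5%, 42.2% and 31.9% in Col-0.

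At 13038686, 8 bases further into the intron, the level was 91.9% and 92.6% in *rdd*, against 82.1%, 75.1% and 83.5% in Col-0. The mean was 92.2% ± 0.489 in *rdd* and 80.2% ± 4.52 in Col-0, a difference of 12.0 points. The *rdr6* libraries, with 61.9% and 62.9% at 13038678 and 77.1% and 78.9% at 13038686, lay within the range of Col-0 at both sites. Within the first set, the Col-0 library, with 71.5% and 82.1%, was also below both *rdd* libraries at these sites.

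Without these 2 sites, the CG level over the remaining 12 was 90.8% and 92.5% in *rdd*, against 89.8%, 87.3% and 89.8% in Col-0. The groups still did not overlap, and the difference was 2.66 points in place of 4.30 (two-sided exact permutation test, p = 0.1, n = 2 and 3, the smallest possible). The remaining differences ranged from 0.49 to 5.83 points.

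In region 1 the groups did not overlap at 13038250, 110 bases upstream of *FWA*, with 89.5% and 92.0% in *rdd*, against 87.8%, 83.6% and 88.7% in Col-0. They overlapped at 13038269, with 87.2% and 89.1% in *rdd*, against 88.1%, 85.0% and 88.2% in Col-0, and at 13038272, where the difference was 1.14 points. In exon 1 the groups did not overlap at 13038361, the first CG site of the gene, with 81.5% in each *rdd* library, against 80.8%, 71.3% and 75.0% in Col-0, a difference of 5.83 points. At 13038364 the level was 92.0% and 93.3% in *rdd*, against 91.0%, 87.2% and 89.6% in Col-0, while at 13038385 the groups overlapped, with 88.5% and 91.3% in *rdd*, against 89.9%, 85.5% and 88.6% in Col-0. In intron 1 the groups did not overlap at either site. At 13038468 the level was 89.4% and 92.1% in *rdd*, against 87.1%, 84.7% and 86.7% in Col-0, and at 13038476 it was 92.6% and 95.0% in *rdd*, against 91.3%, 90.8% and 91.2% in Col-0.

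Exon 2 holds the CG sites with the highest levels of the locus in Col-0, 13038575 and 13038596, and these differed little. At 13038575 the mean was 95.4% in *rdd* and 94.9% in Col-0, a difference of 0.49 points, and at 13038596 it was 95.0% in *rdd* and 94.0% in Col-0. The groups overlapped at both. They did not overlap at 13038582, by 1.89 points, or at 13038606, where the level was 92.2% and 94.7% in *rdd*, against 89.2%, 88.0% and 91.5% in Col-0. Leaving out a single library turned the sign of the difference at 13038269 and 13038596, and set as a term in the fit turned that at 13038385.

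Over the 14 CG sites, a lower level in Col-0 went with a larger difference (Spearman's rho = −0.85, Pearson's r = −0.90). The sites share libraries and reads, the Col-0 level enters both measures, and a site near full methylation has little room to be higher. The levels of the 14 sites were closer together in *rdd*, with an SD over sites of 4.41 and 4.46 percentage points, against 6.22, 10.1 and 7.77 in Col-0. These SDs include 13038678 and 13038686, the sites with the largest differences. They do not show that the other sites were closer together in *rdd*.

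**Figure D2:**
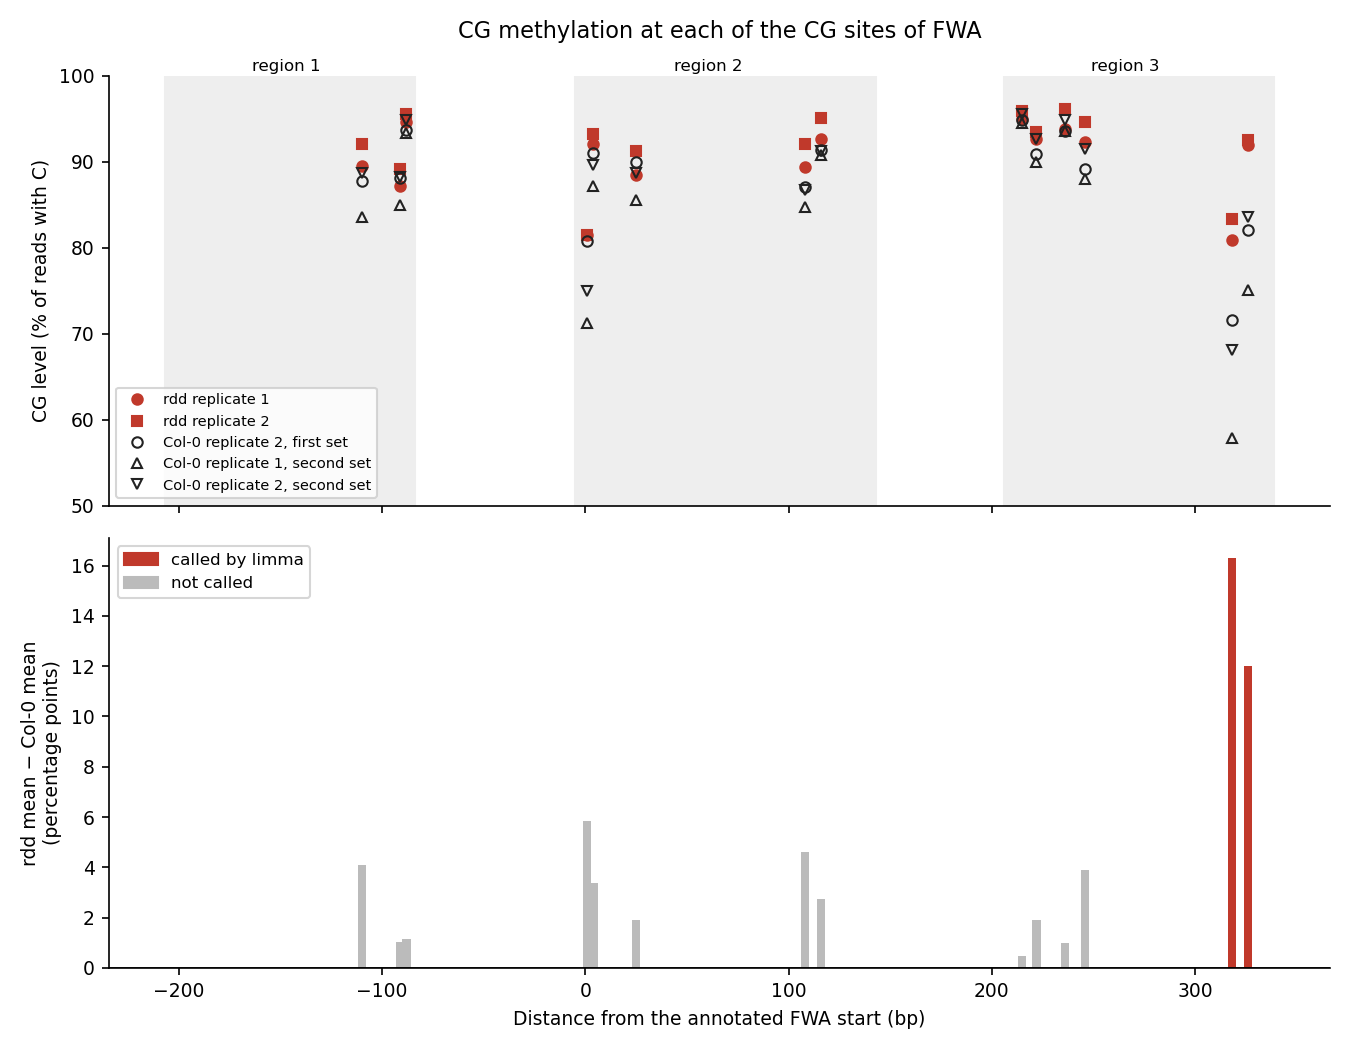
CG level (percent of reads with C) at each of the 14 CG sites by distance in bp from the annotated *FWA* start, one point per library (top, *rdd* in red and Col-0 as open black symbols, axis from 50%), and the *rdd* mean minus the Col-0 mean in percentage points (bottom). All bars are above 0, and the pair at 318 and 326 bp, with 16.3 and 12.0 points, is the only one that limma called.

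The cytosines were tested together with limma on M values, log2((C + 1)/(T + 1)), which are log2 odds of a read carrying C. At an adjusted p under 0.05 (Benjamini-Hochberg over the 74 cytosines), 2 cytosines were called higher in *rdd*, which is 2.70% of the 74, and 25 were called lower, which is 33.8%. The 2 higher ones were the CG sites 13038678 (log2 odds difference 1.24, limma adjusted p = 0.0023) and 13038686 (1.53, limma adjusted p = 0.000132). Of the 25 lower ones, 23 were CHH and 2 were CHG sites.

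These calls depend on how the spread is estimated. In this fit limma estimated an infinite prior, that is, a spread common to all cytosines, so that every cytosine got the same standard error of 0.34 on the log2 odds scale, although the cytosines of an amplicon share reads and are not independent. Limma on percent levels called 0 (21 at an unadjusted p under 0.05, lowest adjusted p 0.149), a quasi-binomial model per cytosine called 0 (2 at an unadjusted p under 0.05), and the exact permutation test per cytosine called 0 and cannot go below p = 0.1. With the set of libraries as a term in limma, 1 was called higher, 13038686, and 6 lower. Without *rdd* replicate 2, or without the second-set Col-0 replicate 1, 13038678 was no longer called (limma adjusted p = 0.0921 and 0.0885) and the count of lower calls was 9 and 8.

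Of the 3 CHG sites, those in intron 1 were lower in *rdd* and the one in exon 2 was not. At 13038491 the level was 16.0% and 13.5% in *rdd*, against 24.1%, 27.1% and 29.9% in Col-0, and 29.6% and 33.3% in *rdr6*. Its mean was 14.8% ± 1.77 in *rdd* (SD, n = 2) and 27.1% ± 2.92 in Col-0 (SD, n = 3), or 54.6% of the Col-0 mean, and limma called it (adjusted p = 0.00607). It lost this call with set as a term (limma adjusted p = 0.173), without *rdd* replicate 2 (0.161) and without the second-set Col-0 replicate 1 (0.0823).

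At 13038499, at the very end of region 2, the level was 1.87% and 1.47% in *rdd*, against 4.17%, 4.22% and 5.56% in Col-0 (limma adjusted p = 0.000132). It was thus 35.9% of the Col-0 mean. The CHG site 13038583, which is followed directly by the CG site 13038582 on the minus strand, had 8.30% and 8.11% in *rdd*, against 6.50%, 8.51% and 8.10% in Col-0. There the groups overlapped, and the difference of 0.50 points changed sign against the second-set Col-0 libraries alone (−0.10).

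All 57 CHH sites had a lower mean in *rdd* than in Col-0, by 0.01 to 5.93 percentage points. At 45 of them both *rdd* libraries lay below all 3 Col-0 libraries. Over all 74 cytosines, 63.5% lay this way, of which the CHH sites make up all but the 2 CHG sites. Against the 5 Col-0 and *rdr6* libraries together the count was 33 of 57, where 47.3% of the 74 lay this way. Against the first-set Col-0 library alone, a weaker condition, it was 47 of 57, where 49 of the 74 lay this way. The median *rdd* mean was 61.2% of the Col-0 mean over the 57 sites, with a range of 15.7% to 96.9%. The order of the sites was much the same in both genotypes (Spearman's rho = 0.96 between *rdd* and Col-0 means over 57 sites, as a description of sites that share libraries).

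The 5 CHH sites with the largest differences in points lie in and around the repeat copies, and none of the 57 had a positive difference. The largest was at 13038632 in intron 2, with 6.48% and 5.16% in *rdd*, against 10.3%, 11.3% and 13.7% in Col-0 (−5.93 points, limma adjusted p = 0.00597). Near it, at 13038628, the last base of exon 2, the level was 5.88% and 4.80% in *rdd*, against 9.81%, 10.2% and 13.6% in Col-0 (−5.88 points, limma adjusted p = 0.00386). Both sites lost their call with set as a term, without *rdd* replicate 2 and without the second-set Col-0 replicate 1 (limma adjusted p = 0.0643 to 0.173).

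The other 3 lie in region 2 and were not called. The site 13038428, which had the highest mean CHH level of the locus in Col-0, had 15.3% and 13.4% in *rdd*, against 16.8%, 17.9% and 25.5% in Col-0, or 71.8% of the Col-0 mean (limma adjusted p = 0.157). At 13038421 the level was 8.54% and 7.49% in *rdd*, against 10.7%, 11.6% and 17.6% in Col-0 (limma adjusted p = 0.0542). At 13038370 the groups overlapped, with 11.7% and 10.4% in *rdd*, against 11.6%, 15.2% and 21.9% in Col-0 (limma adjusted p = 0.131). At all 3 sites the second-set Col-0 replicate 2 was above the other Col-0 libraries.

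**Figure D3:**
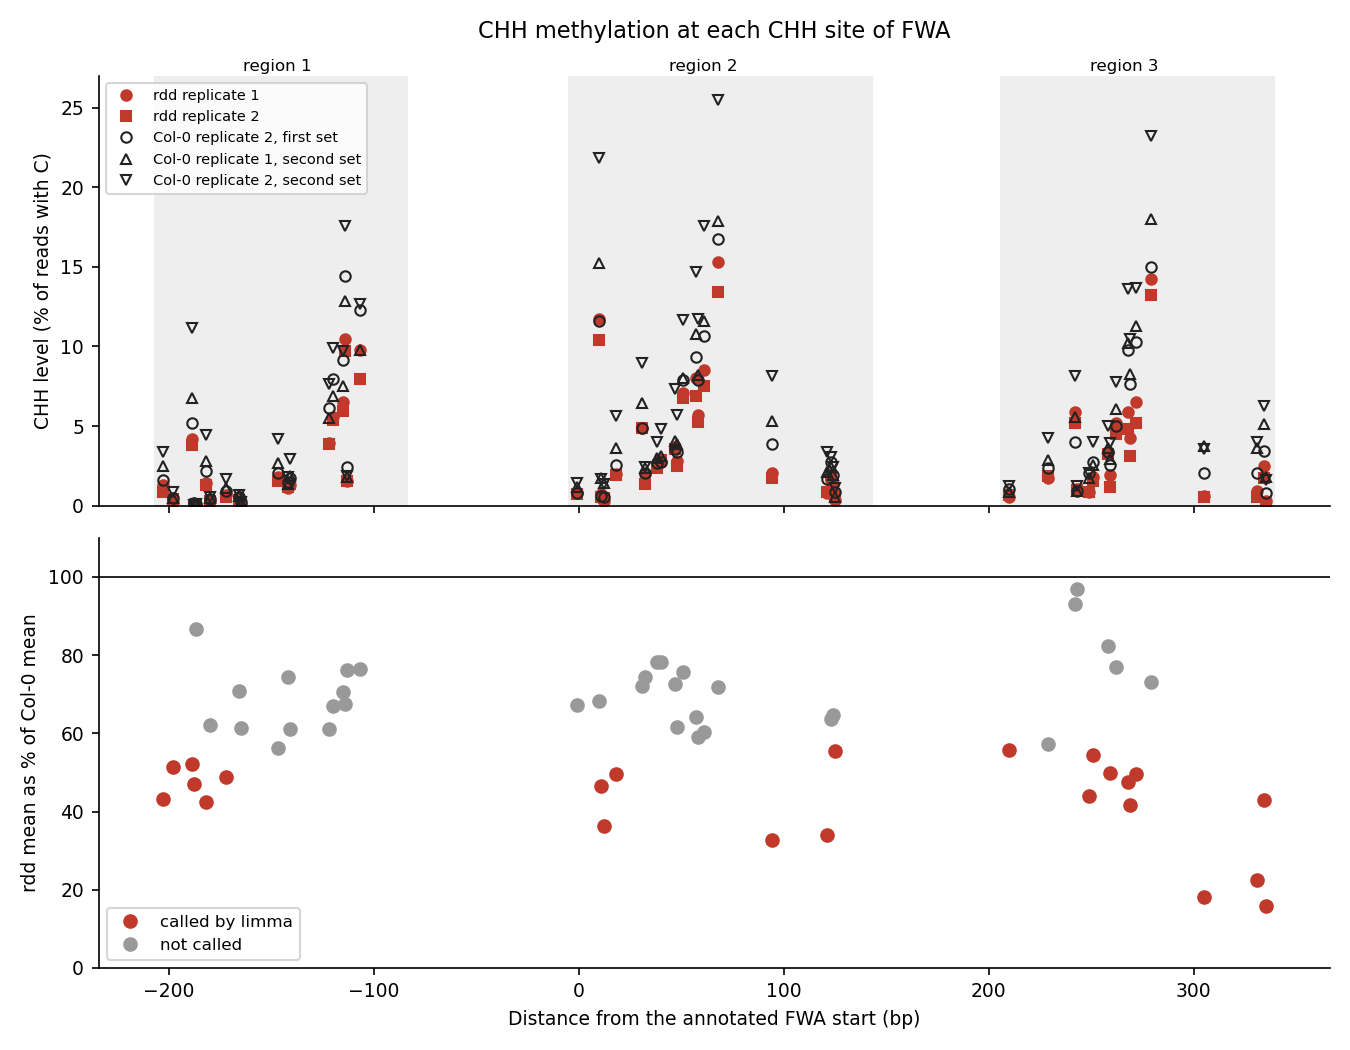
CHH level (percent of reads with C) at each of the 57 CHH sites by distance in bp from the annotated *FWA* start, one point per library (top), and the *rdd* mean as a percent of the Col-0 mean (bottom, red where limma called the site). All points of the lower panel are under 100%, and those at 305, 331 and 335 bp, next to the CG sites of intron 2, are at 18.2%, 22.5% and 15.7%.

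Relative to Col-0, CHH methylation was lowest at sites that were chosen for description after their values were seen. These were the last CHH sites of region 3, which lie beside the CG sites 13038678 and 13038686. At 13038665 the level was 0.576% and 0.555% in *rdd*, against 2.04%, 3.73% and 3.57% in Col-0, or 18.2% of the Col-0 mean. At 13038691 it was 0.941% and 0.514% in *rdd*, against 2.06%, 3.61% and 4.01% in Col-0, and at 13038695 it was 0.319% and 0.128% in *rdd*, against 0.807%, 1.82% and 1.64% in Col-0. The fourth, 13038694, was at 43.1% of the Col-0 mean. In intron 1, the counterparts in the other copy were less far below Col-0, with 32.8% at 13038454, 34.0% at 13038481, 64.8% at 13038484 and 55.5% at 13038485. Over all 17 matching CHH pairs the median share of the Col-0 level was 49.8% in the region 3 copy and 64.8% in the region 2 copy, and it was lower in region 3 at 11 of them. Thus at the end of region 3 the CG level was higher and the CHH level lower in *rdd* on the same short stretch. The directions of the means were the same at all 14 CG and all 57 CHH sites, so they do not set this stretch apart.

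By place in the gene, 6 of the 7 CHH sites in intron 2, 3 of 8 in intron 1 and 5 of 10 in exon 2 were called lower by limma. In exon 1 it was 3 of 12, and upstream 6 of 20. Over all places 23 of the 57 CHH sites were called lower, and 33.8% of all 74 cytosines, which include the CG sites. The median *rdd* mean was 41.7% of the Col-0 mean in intron 2, 59.8% in intron 1, 56.5% in exon 2, 70.1% in exon 1 and 61.8% upstream. Of the 23 CHH sites called, 18 had a Col-0 mean under 5%, and the groups overlapped at 2 (13038172 and 13038371). The 20 CHH sites with a Col-0 mean of at least 5% had a median of 67.2%, and 5 of them were called. By sequence, the median share of the Col-0 level ran from 46.6% at the 5 CCT sites to 66.9% at the 3 CTC sites, with 57.2% at the 15 CAA sites, the most frequent ones.

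The copies of the repeat in regions 2 and 3 hold 4 matching CG pairs. In Col-0 the copy in region 3 was less methylated than the copy in region 2 at the 2 pairs that lie in introns 1 and 2, and this step was smaller in *rdd*. From 13038468 to 13038678, the level changed by −8.57 and −8.76 points in *rdd*, against −15.5, −26.8 and −18.6 points in Col-0. From 13038476 to 13038686, it changed by −0.728 and −2.46 points in *rdd*, against −9.21, −15.7 and −7.69 points in Col-0. The libraries of the groups did not overlap, and neither did those of *rdr6* with *rdd*, with changes of −23.0 and −22.2 points at the first of these pairs and −14.3 and −12.8 at the second.

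The step differed between *rdd* and Col-0 by 11.7 points at the first of these pairs and by 9.27 at the second. The two-sided exact permutation test gave p = 0.2 and p = 0.1 and an adjusted p of 0.267 for both over the 4 pairs, so that neither passed. At the 2 pairs in exons 1 and 2 the copy in region 3 was the more methylated one. The step from 13038364 to 13038575 was 2.77 points in *rdd* and 5.68 in Col-0, and that from 13038385 to 13038596 was 5.07 points in *rdd* and 5.99 in Col-0, with overlap at the last. Since the copies are nearly identical, a read may have been placed on the wrong copy, and how often was not tested.

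**Figure D4:**
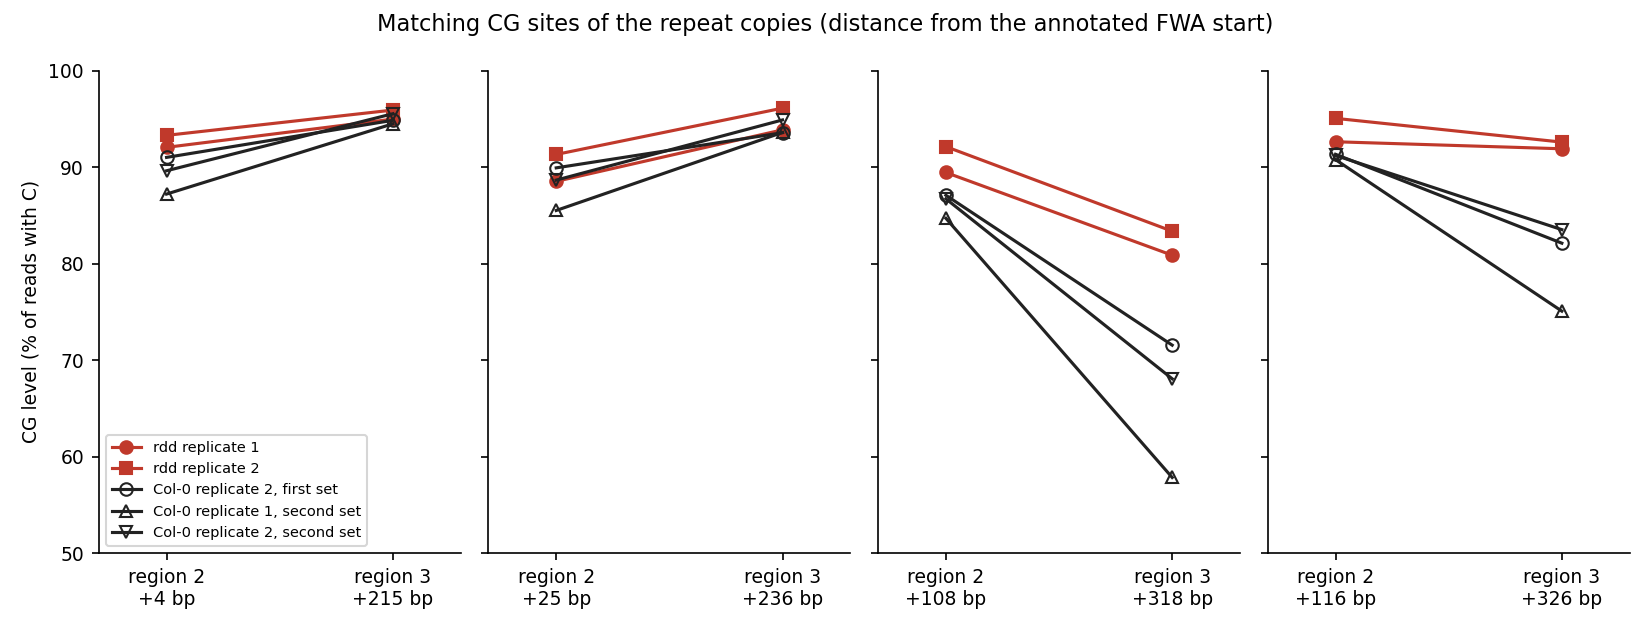
CG level (percent of reads with C, axis from 50%) at the 4 matching CG pairs of the repeat copies, each line joining the site in region 2 to its counterpart in region 3 in one library, with *rdd* in red and Col-0 in black and distances in bp from the annotated *FWA* start. In the third panel the lines of *rdd* change by −8.57 and −8.76 points and those of Col-0 by −15.5 to −26.8.

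Transformed plants with a methylated *FWA* give a measure of where these levels lie. SDG2cd(H1866K)–ZF is a fusion of the SDG2 catalytic domain, with a mutation in its active site, to a zinc finger aimed at *FWA*, and its 4 plants in Col-0 had CG levels of 84.6% to 86.3% and a level at 13038678 of 58.2% to 64.4%. The fusion without that mutation was also put into *rdd*, and its 8 lines carry the same 3 demethylase mutations as the untransformed *rdd* plants. Their CG level ran from 80.3% to 86.4% with a median of 83.2%, below both untransformed *rdd* libraries.

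At 13038678 these lines had 58.6% to 67.4% (median 63.2%), against 80.9% and 83.4% in untransformed *rdd*, and at 13038686 they had 66.5% to 77.3% (median 72.2%), against 91.9% and 92.6%. Thus the high levels of the untransformed *rdd* libraries at these sites were not seen in any of the 8 lines. Their CHH level was 3.83% to 9.99% with a median of 7.78%, above both untransformed *rdd* libraries, and their CHG level was 4.46% to 16.5% with a median of 10.7%. These groups differ in transgene and were not tested against each other.

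In the 3 *fwa* libraries, which come from plants that carry the unmethylated epiallele, no library was above 0.648% at any of the 74 cytosines. The CHH level of a further amplicon in these libraries, in the neighbouring gene *MSH3*, bears on bisulfite conversion. Over its 18 CHH sites it was 0.0711% and 0.0654% in *rdd*, against 0.0681%, 0.0806% and 0.0679% in Col-0. The CG sites of that amplicon other than 13044701, 6 in number, averaged 83.2% and 84.8% in *rdd*, against 81.6%, 77.9% and 83.0% in Col-0. The first-set Col-0 average includes 61.9% at 13044744, where the second-set Col-0 libraries had 77.0% and 83.1%. That first-set library was above both *rdd* libraries at 13044660, 13044669, 13044726 and 13044733, and below both at 13044758. The average thus does not show a higher CG level in *rdd* across this amplicon.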

How the data were processed

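Per cytosine, the deposited files hold a count of C reads, a total read count and the fraction C/(C + T). The authors derived these counts with BSMAP 2.90 on TAIR10 (at most 2 mismatches, 1 best hit) and dropped reads in which over 3 CHH sites in a row were methylated. The methods word these steps for whole-genome bisulfite sequencing. For BS-PCR-seq they add that data within the 3 regions were kept, and they mention no removal of duplicate reads. Dropping such reads could lower CHH levels.

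Levels were computed from the deposited counts at cytosines with at least 10 reads. The deposited fraction matched them to its rounding. Position, strand and context of all 144 listed cytosines matched TAIR10.1 (RefSeq), from which exons and sequences were taken. Of the 93 cytosines listed in the regions, 19 had too few reads, and none of the 74 lies in a primer. The level of a library is the unweighted mean over sites. PCR reads are not independent molecules. No replicate repeated the counts of another, since the members of each pair differed by chi-square tests of the counts at 11 or more of the 14 CG sites. With this many reads, such tests cannot show that replicates came from separate plants. A first and a second set of libraries were told apart by accession block, as no label states a batch.

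Differences were tested by two-sided exact permutation over libraries and, per cytosine, with limma 3.58.1 (R 4.3.3) on M values with a pseudocount of 1. The limma fit was also run on simulated data, with noise drawn independently for each cytosine and library. That run cannot show how the fit behaves where cytosines share reads and libraries shift as a whole. Python 3.11.15, numpy 2.4.6, pandas 2.3.3, scipy 1.17.1 and matplotlib 3.10.9 were used. All CG and CHG sites were named, and of CHH sites the 5 with the largest differences in each direction and the one highest in Col-0. Members, lists and tests were chosen with earlier results of these data known. Alternatives were other minimums of reads, pooled counts, medians, region means, the deposited fraction, other Col-0 and *rdr6* libraries as the comparison, a replicate block, set as a term, other models, pseudocounts and thresholds, and each library left out. The other 25 files, including 2 libraries whose labels give no background, were not used.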

Additional observations from a re-analysis of the deposited data

Results flagged for a closer look

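A CG site outside the 3 *FWA* regions differed between the genotypes far more than any site inside them. It lies at 13044701 in exon 7 of *MSH3* (AT4G25540), on the plus strand, in the further amplicon outside the tested regions, and was read at 60543 times or more in each of the 5 libraries. The level was 2.20% and 0.705% in *rdd*, against 83.9%, 74.6% and 82.2% in Col-0, a difference of −78.8 percentage points, and 78.6% and 78.8% in *rdr6*. The 8 SDG2cd–ZF lines in *rdd* had 0.187% to 0.599% there, and the SDG2cd(H1866K)–ZF plants 79.2% to 80.3%. The CHG site beside it, 13044700, had 0.0341% and 0.0264% in *rdd*, against 1.08%, 0.555% and 0.805% in Col-0. The other 6 CG sites of the amplicon differed by at most 9.46 points. In bisulfite reads of one strand, an unmethylated cytosine and a thymine in the DNA cannot be told apart.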

How the results depend on the processing

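For the levels by context and region, the comparison with *rdr6* and the steps between copies, 195 alternatives were run. Some could not move a value. The fewest reads were 5448, above the minimums of 50 and 100, and no measured cytosine lay in a primer. For the levels, leaving out the first-set Col-0 library repeated the use of the second set alone. A minimum of 1 read moved the CHG difference to −9.81 points and the CHH difference to −3.52. The direction was kept under all but 5 of the 195, and none had an adjusted p under 0.05. With 2 against 3 libraries none could. The exceptions were the CHG level with the median over sites (0.50 points), the CHG level of region 3 against the second-set Col-0 libraries alone or without the first-set Col-0 library (−0.10), and the step from 13038385 to 13038596 against the first-set Col-0 library alone (1.42) or without the second-set Col-0 replicate 1 (0.13). For the context levels the replicate block entered only the regroupings, so the differences of 4.30, −4.92 and −1.94 points could not change. The exact permutation test within blocks gave p = 0.167 for CG, 0.167 for CHG and 0.333 for CHH. The adjusted p (exact test) was 0.25, 0.25 and 0.333. The labels share a number but no stated origin, and with the number as a block limma called 2 cytosines higher and 22 lower.

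The counts of called cytosines, 2 higher and 25 lower, were 0 and 0 with limma on percent levels, with the quasi-binomial model and with the exact permutation test, and 1 and 6 with set as a term. With *rdr6* added to Col-0, a choice made after the data were seen, they were 5 and 25, and with Col-0 and *rdr6* of the first set alone 5 and 20. An adjusted p under 0.01 gave 2 and 17. Among single CG sites, set as a term turned 13038385 to −0.0043 points. Leaving out 1 library in turn gave 1 to 3 higher and 8 to 33 lower calls (9 without *rdd* replicate 2, 14 without the second-set Col-0 replicate 2), CG differences of 3.11 to 5.17 points, CHG of −5.69 to −4.22 and CHH of −2.39 to −1.28. In the same way 13038269 ran from −0.034 to 2.00 points, 13038596 from −0.15 to 2.09, the CHG site 13038583 from −0.10 to 0.90 and the step from 13038385 to 13038596 from −2.09 to 0.13. The cause of these changes was not tested.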

Other observations

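In the *MSH3* amplicon, the CHG site 13044767 had 55.5% in each *rdd* library, against 55.5%, 59.2% and 61.4% in Col-0. It had 52.8% and 53.9% in *rdr6*, 58.0% to 59.5% in the SDG2cd(H1866K)–ZF plants and 54.2% to 59.9% in the *fwa* libraries. By contrast, no *fwa* library was above 0.674% at any CG site of the amplicon. Whether the reads with C at 13044767 reflect methylation was not tested. The CG site 13044744 had 82.5% and 84.3% in *rdd*, against 61.9% in the first-set Col-0 library and 77.0% and 83.1% in the second-set ones.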
